A study of Mus musculus with 47 samples.

Results

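The comparison of GM with MkE sets 2 groups of progenitor cells from mouse bone marrow side by side, and it rests on 6 of the 47 arrays of the series. Arrays were taken when the first word of the title was exactly GM (2 arrays) or MkE (4 arrays), so the 3 arrays of the separate GMP group do not belong to it. In common use GM stands for progenitors of granulocytes and monocytes, and MkE for progenitors of megakaryocytes and red cells. The labels spell out neither name and list no sorting antigens. Both groups came from the bone marrow of adult C57Bl6 mice, and no treatment, mutation or transgene is recorded for either. Each array holds amplified RNA of 2000 sorted cells. The series covers 17 such groups, from stem cells (LTHSC) to lymphocytes. Arrays of a group are biological replicates per the labels, which do not say how many animals stood behind each, so a p-value here measures the spread between arrays, part of which may be technical.

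Blood stem cells give rise to progenitors that make either granulocytes and monocytes, which defend against microbes, or red cells and the megakaryocytes that shed platelets. In the mouse, the factor Cebpa together with PU.1 (the product of Spi1) turns on granulocyte and monocyte genes, while Gata1 with its partner Zfpm1 and the factor Klf1 turn on genes of the red cell. PU.1 and Gata1 are known to bind each other and to hinder each other's work, and early progenitors are known to carry transcripts of more than 1 lineage.

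All levels below are log2 of the authors' intensity, so a difference of 1 is a 2-fold change. Differences are GM minus MkE, and the error behind ± is the standard error of the fit by limma. A gene was called when its Benjamini-Hochberg adjusted p was under 0.05 and its difference at least 2-fold. Different genes are read by different probes, so levels were compared within a gene only. Over the 13949 genes tested, both GM arrays correlated at 0.994 and the MkE arrays at 0.978 to 0.99 among themselves, while GM with MkE arrays gave 0.938 to 0.945. All 6 arrays held the X-linked transcript Xist and lacked a level of the Y-linked Eif2s3y over 3, so this division of the series does not separate GM from MkE.

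In all, 796 genes (5.71% of those tested) were called higher in GM and 327 (2.34%) lower, which makes 8.05% called in either direction. Higher calls made up 70.9% of the total. At least 4-fold differences were found for 274 genes higher in GM and 110 lower, and at least 16-fold differences for 52 higher and 20 lower. The 2 GM arrays lay wholly above or below the 4 MkE arrays for 1122 of the 1123 called genes, and for 35.9% of all genes tested. For 174 of the higher calls the MkE mean, and for 55 of the lower calls the GM mean, was under the filter level of 3.89, so the size of those differences rests on dim values on that side. The median difference over all genes tested was -0.008.

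**Figure D1:**
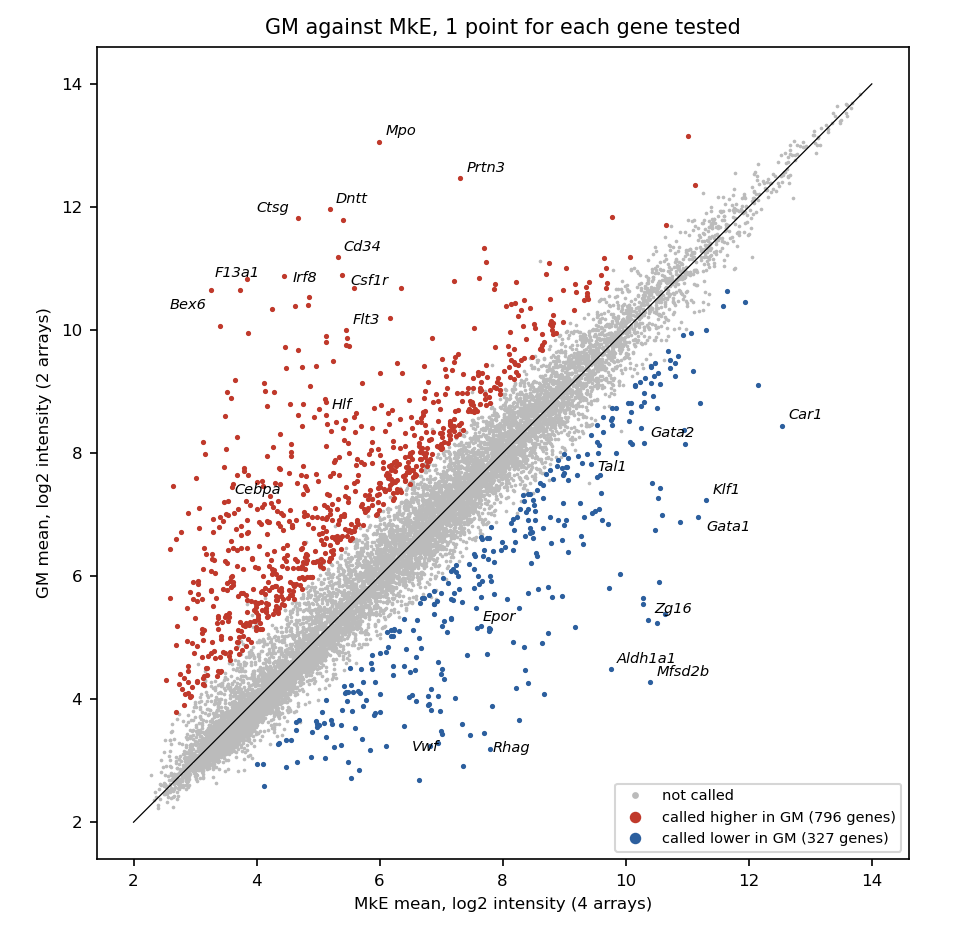
Mean log2 intensity of the 2 GM arrays (y axis) against that of the 4 MkE arrays (x axis), 1 point for each of the 13949 genes tested, with the line of equal levels. The 796 genes called higher in GM lie above the line, with Mpo, Prtn3 and Dntt far from it, and the 327 called lower lie below it, with Car1, Gata1 and Mfsd2b far from it.

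Genes that mark the named lineages followed the labels. Summed intensities of 5 granulocyte-monocyte progenitor markers (Mpo, Elane, Ctsg, Prtn3 and Cebpa) were 17833 and 18550 on the GM arrays, against 580, 204, 321 and 197 on the MkE arrays in the order of their replicate numbers. The sum of 5 megakaryocyte-erythroid progenitor markers (Gata1, Klf1, Gata2, Itga2b and Epor) was 715 and 703 in GM, against 5874, 6182, 8103 and 6714 in MkE. Monocyte and macrophage markers (Csf1r, Ly86, F13a1, Ccr2, Adgre1 and Cd14) summed to 4102 and 4237 in GM, against 143 to 179 in MkE. Of these, Ccr2, Adgre1 and Cd14 were not called (-0.07, 0.14 and -0.10 on the probe sets that stand for them). Stem cell markers (Hlf, Procr, Fgd5, Hoxb5 and Mecom) summed to 596 and 618 in GM, against 66.7 to 89.3 in MkE. Slamf1, Tek and Mycn, stem cell genes outside that sum, were lower in GM. Platelet markers summed to 164 and 165 in GM, against 248 to 391 in MkE. Mast cell and basophil markers summed to 371 and 342 in GM, against 216 to 319 in MkE. Among them only Mcpt8, a basophil protease, was called higher in GM (2.84). Lymphocyte markers summed to 140 to 145 in GM and 60.6 to 76.3 in MkE for B cells, 69.2 to 72.7 in GM and 63.3 to 82.6 in MkE for T cells, and 60.9 to 65.3 in GM and 46.2 to 63.9 in MkE for NK cells. Of the 5 B cell markers measured, 4 (Cd79a, Pax5, Ebf1 and Ms4a1) were under the filter level in both groups. So were 2 of 4 T cell markers and 1 of 4 NK cell markers. Slc4a1 and Alas2, which mark late red cell precursors, were under the filter level in both groups. Mature neutrophil markers (Ltf, Camp, Ngp, S100a8, S100a9 and Mmp9) summed to 600 and 1846 in GM, against 2008, 517, 777 and 816 in MkE, so they varied within each group more than between them. In bulk arrays of this kind, fewer cells of a type and less RNA per cell cannot be told apart.

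Transcription factors of the granulocyte-monocyte branch were higher in GM. Of 11 in the list 10 were tested, 7 were called higher and none lower, and their median difference was 1.94 (1.13 with the mean of the probe sets). Irf8, a factor that steers progenitors towards monocytes, had levels of 10.83 and 10.93 in GM, against 4.55, 4.10, 4.85 and 4.27 in MkE, a difference of 6.44 ± 0.36 (86.7-fold, limma adjusted p = 1.4e-16). Both GM arrays lay far above every MkE array. Cebpa, which progenitors need to make granulocytes, had 7.49 and 6.96 in GM, against 3.70, 3.32, 3.59 and 3.57 in MkE, a difference of 3.68 ± 0.22. Gfi1, a repressor needed for neutrophils, had 8.0 and 7.96 in GM, against 3.24, 3.12, 3.25 and 3.06 in MkE, a difference of 4.81 ± 0.38. For both, every MkE array was under the filter level and both GM arrays were well above it.

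Spi1, which encodes PU.1, differed less. Its levels were 6.80 and 7.21 in GM, against 5.58, 5.15, 5.43 and 5.55 in MkE, a difference of 1.57 ± 0.35 (limma adjusted p = 0.0014, but 0.07 without GM replicate 2). Spi1 was thus measured well above the filter level on all 6 arrays, with the groups apart. Cebpd, a relative of Cebpa, was 2.72 ± 0.34 higher, and its GM arrays stood apart from each other at 5.47 and 6.62. The calls of Cebpb (1.40 ± 0.44) and of Id2, an inhibitor of bHLH factors (2.30 ± 0.73), ended when either GM array was left out, with limma adjusted p of 0.14 to 0.26, and also without MkE replicate 1, 3 or 4 (0.051 to 0.067). Over the mean of their probe sets Cebpb differed by 0.80 and Id2 by 0.85. Another of the 3 probe sets of Id2 gave -0.01, and a second one of Cebpd gave 0.10. Without GM replicate 2, 4 of the 10 factors were called. Klf4, Nab2 and Egr2, also tied to monocytes, were not called, at 1.03 ± 0.78, 0.49 ± 0.28 and -0.08 ± 0.53. Klf4 was called higher with the GM and MkE arrays alone (limma adjusted p = 0.0015), while its other probe set gave -0.05.

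Factors of the megakaryocyte-erythroid branch were lower in GM, and several were still above the filter level there. Of 15 in the list 14 were tested, 8 were called lower and 1 higher, and their median difference was -1.41. Gata1, the central factor of red cells and megakaryocytes, had 6.98 and 6.95 in GM, against 11.09, 11.15, 11.29 and 11.17 in MkE, a difference of -4.21 ± 0.28 (18.5-fold lower, limma adjusted p = 1.9e-14). Klf1, which drives globin and red cell membrane genes, had 7.15 and 7.32 in GM, against 10.97, 11.15, 11.78 and 11.32 in MkE, a difference of -4.07 ± 0.45. Neither gene had overlapping arrays, and both kept GM levels about 3 log2 units above the filter level. That level is the median of all values and not the background of each probe set. Gata1 had means of 6.51 in CD4 and 5.77 in CLP, and Klf1 of 4.61 in CD4 and 5.66 in CLP. Whether the GM level of Gata1 exceeds the background of its probe set was not tested. Gata2, which acts in stem cells and early progenitors, had 8.19 and 8.13 in GM, against 10.26, 10.17, 10.47 and 10.30 in MkE, a difference of -2.14 ± 0.25. Zfpm1, the partner of Gata1, fell by 2.43 ± 0.34 and Gfi1b, the erythroid relative of Gfi1, by 2.23 ± 0.30 in GM relative to MkE.

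Gfi1 and Gfi1b, which encode related repressors, therefore differed in opposite directions. Tal1, a bHLH factor of stem and red cells, differed by -1.39 ± 0.24, and its corepressor Cbfa2t3 by -1.45 ± 0.29. Nfia, which favours the red cell fate, differed by -1.42 ± 0.31, but by -0.63 when the mean of its 6 probe sets stood for it. Partners of Tal1 and Gata1 were not all lower. The adaptor Lmo2 had 11.52 and 11.95 in GM, against 11.28, 11.49, 11.26 and 11.60 in MkE, with the arrays overlapping (0.33 ± 0.32, limma adjusted p = 0.69). Ldb1, which joins these factors into a complex, differed by -1.08 ± 0.48 (limma adjusted p = 0.19, but 0.0084 with the GM and MkE arrays alone). Lyl1, a close relative of Tal1, was called higher in GM at 1.18 ± 0.29, with a limma adjusted p of 0.074 without GM replicate 1 and a difference of 0.96 with the replicate block over all arrays. Fli1 (0.48 ± 0.35), Meis1 (-0.13 ± 0.30) and Nfe2 (-0.59 ± 0.35) were not called. MkE replicate 3 was the highest of the MkE arrays for 11 of the 14 factors. It was also the highest for 11 of the 18 DNA replication genes, but for 1 of the 9 primary granule genes. The upper quartile of all its intensities was 75.72, against 59.87, 62.44 and 62.86 on the other MkE arrays, and its median was 13.93, against 14.37 to 15.17.

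**Figure D2:**
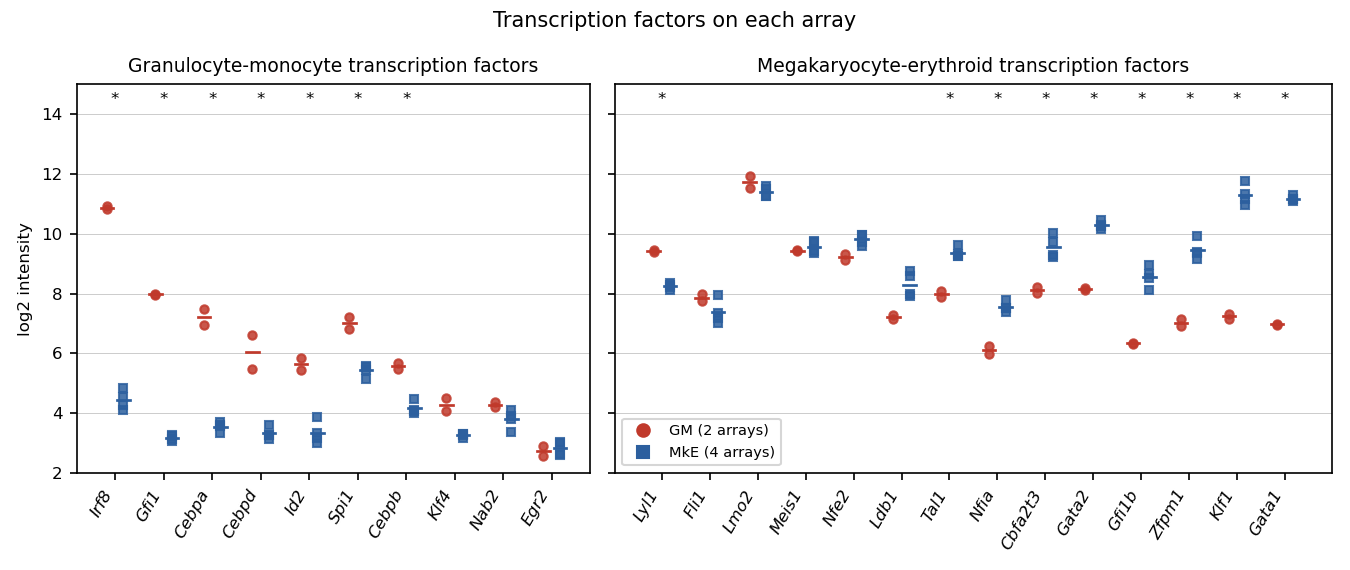
Log2 intensity on each array (points) and group means (bars) for the 10 granulocyte-monocyte and the 14 megakaryocyte-erythroid transcription factors tested, GM (circles) left of MkE (squares), with * over genes called. Irf8 and Gfi1 show wide gaps in favour of GM, and Gata1 and Klf1 in favour of MkE, while Lmo2, Fli1 and Meis1 overlap.

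Cytokine receptors divided along the same lines. Of 16 in the list 13 were tested, 6 were called higher in GM and 2 lower (median 1.29, and 0.75 to 2.10 over the other settings). Csf1r, the receptor for the monocyte growth factor M-CSF, had 10.87 and 10.93 in GM, against 5.56, 5.02, 5.86 and 5.11 in MkE, a difference of 5.51 ± 0.64 (45.7-fold, limma adjusted p = 1.8e-08). Csf3r, the receptor for the granulocyte growth factor G-CSF, had 6.58 and 7.04 in GM, against 3.68, 3.63, 4.03 and 3.68 in MkE, a difference of 3.06 ± 0.33. For both receptors no MkE array was more than 2 log2 units above the filter level. The shared beta chain Csf2rb, which signals for GM-CSF, IL-3 and IL-5, differed by 3.95 ± 0.35. Its partner Csf2ra, which binds GM-CSF, had 5.33 and 5.47 in GM, against 5.00, 5.59, 5.75 and 5.09 in MkE (0.05 ± 0.29), so the arrays overlapped for 1 chain of the GM-CSF receptor and lay apart for the other. Il6ra, the IL-6 receptor, differed by 4.57 ± 0.44 on the probe set that stands for it and by 0.09 on a dimmer one. The lowest difference over the probe sets was 1.20 for Csf1r and 1.77 for Csf2rb.

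On the other side, Epor, the erythropoietin receptor, had 5.00 and 5.32 in GM, against 7.48, 6.97, 8.20 and 7.66 in MkE, a difference of -2.41 ± 0.30 (limma adjusted p = 9.5e-08). Ifngr1, the ligand-binding chain of the interferon gamma receptor, had 8.05 and 7.97 in GM, against 9.71, 9.77, 10.25 and 9.66 in MkE, a difference of -1.84 ± 0.24, and its MkE mean was the highest of the 17 groups. No arrays of the groups overlapped for either. Kit, the receptor for stem cell factor, was not called (-0.61 ± 0.46, limma adjusted p = 0.56), although both GM arrays (9.47 and 9.29) lay under all MkE arrays (9.69 to 10.45). Il3ra (0.45 ± 0.21), Csf2rb2 (1.29 ± 0.59) and Il5ra (0.41 ± 0.21, dim in both groups) were not called either. Csf2rb2, a second beta chain for IL-3, was called higher with array weights (limma adjusted p = 0.0023) and with the GM and MkE arrays alone (0.0033).

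Primary granule genes, which encode the enzymes packed into the first granules of neutrophil and monocyte precursors, held some of the largest differences. Of 10 in the list 9 were tested, 5 were called higher in GM and none lower (median 2.59). Promoters of the 4 granule enzyme genes are shown because these genes moved together and each holds AGGAAGT, the letters bound by PU.1 and other Ets factors. Each sequence is from RefSeq on GRCm38.p6, from 250 bases before the start site to 50 after it, read along the gene, with AGGAAGT in capitals.
Mpo: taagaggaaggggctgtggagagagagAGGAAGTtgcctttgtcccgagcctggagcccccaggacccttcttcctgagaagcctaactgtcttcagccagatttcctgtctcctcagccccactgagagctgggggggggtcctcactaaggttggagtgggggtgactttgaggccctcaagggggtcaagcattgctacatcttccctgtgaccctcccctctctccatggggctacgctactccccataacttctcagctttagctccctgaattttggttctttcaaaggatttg
Prtn3: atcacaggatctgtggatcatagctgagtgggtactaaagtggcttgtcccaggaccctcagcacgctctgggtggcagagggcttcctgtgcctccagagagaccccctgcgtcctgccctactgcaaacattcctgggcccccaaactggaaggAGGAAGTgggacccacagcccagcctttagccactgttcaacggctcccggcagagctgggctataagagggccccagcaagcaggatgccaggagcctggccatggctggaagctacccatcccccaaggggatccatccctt
Elane: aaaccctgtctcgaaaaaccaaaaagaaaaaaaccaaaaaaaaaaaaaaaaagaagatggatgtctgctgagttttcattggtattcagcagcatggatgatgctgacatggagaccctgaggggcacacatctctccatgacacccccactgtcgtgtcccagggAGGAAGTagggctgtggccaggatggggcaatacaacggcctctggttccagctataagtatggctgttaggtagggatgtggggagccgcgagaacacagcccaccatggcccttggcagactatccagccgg
Ctsg: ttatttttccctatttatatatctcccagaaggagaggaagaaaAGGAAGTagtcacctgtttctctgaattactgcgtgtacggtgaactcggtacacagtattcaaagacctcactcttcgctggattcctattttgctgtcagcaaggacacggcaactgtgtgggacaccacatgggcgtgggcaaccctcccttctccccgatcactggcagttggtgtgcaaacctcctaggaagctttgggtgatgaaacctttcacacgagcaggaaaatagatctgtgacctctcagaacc
They lie at chr11:87793534-87793833 (Mpo, plus strand), chr10:79879417-79879716 (Prtn3, plus strand), chr10:79886062-79886361 (Elane, plus strand) and chr14:56102525-56102824 (Ctsg, minus strand). Prtn3 and Elane are neighbours on chromosome 10, where the gene Prtn3 ends at 79883174 and Elane starts at 79886312. The letters begin at -223 in Mpo, -94 in Prtn3, -84 in Elane and -206 in Ctsg, counted from the start site. Ms4a3, the fifth called member, has no AGGAAGT in this window. Searched on both strands, these letters stood in 14.1% of the promoters of genes called higher in GM, 8.19% of those called lower and 9.06% of those of all genes tested. None of the 5 called granulocyte-monocyte transcription factors with a promoter in the table held them. A match describes letters and is no measured binding site.

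Mpo, the myeloperoxidase that makes hypochlorous acid, had 13 and 13.13 in GM, against 7.76, 5.12, 6.34 and 4.76 in MkE, a difference of 7.07 ± 0.78 (134-fold, limma adjusted p = 5.9e-09). Ctsg, the protease cathepsin G, had 11.82 and 11.82 in GM, against 5.89, 4.11, 4.45 and 4.27 in MkE, a difference of 7.14 ± 0.58 (141-fold). Prtn3, proteinase 3, had 12.48 and 12.46 in GM, against 7.97, 6.91, 7.47 and 6.88 in MkE, a difference of 5.16 ± 0.49. Every GM array was more than 4 log2 units above every MkE array for these 3 genes. Elane, neutrophil elastase, had 6.81 and 7.87 in GM, against 5.32, 4.44, 4.83 and 4.42 in MkE, a smaller difference of 2.59 ± 0.31. Ms4a3, a membrane protein of granulocyte-monocyte progenitors, differed by 3.14 ± 0.30. For all 5 called genes MkE replicate 1 was the highest of the MkE arrays, and without it the difference of Mpo was 7.66 and that of Ctsg 7.55. The proteoglycan core Srgn, which holds granule contents in many blood cells, had 12.12 and 12.02 in GM, against 12.08, 12.10, 12.03 and 12.16 in MkE, and was not called. Cst7, Nkg7 and Clec5a were not called either.

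Genes of later neutrophil granules did not separate the groups. None of the 11 tested of 12 in the list was called by limma, none had an unadjusted p under 0.05, and the median difference was 0.29, which became 0.89 without GM replicate 1 and -0.45 without GM replicate 2. Ngp, a granule protein of maturing neutrophils, had 7.96 and 9.52 in GM, against 9.56, 7.21, 8.49 and 8.36 in MkE. S100a8, a calcium-binding protein abundant in neutrophils, had 7.25 and 8.93 in GM, against 9.34, 6.86, 7.25 and 7.80 in MkE. GM replicate 2 was above GM replicate 1 for 10 of the 11 genes, and MkE replicate 1 was the highest of the MkE arrays for 8. The part of neutrophil RNA in the levels of these 2 arrays was not tested. Of the primary granule genes, 5 were called without either array, and their median difference was 2.06 without GM replicate 2 and 3.11 without GM replicate 1.

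**Figure D3:**
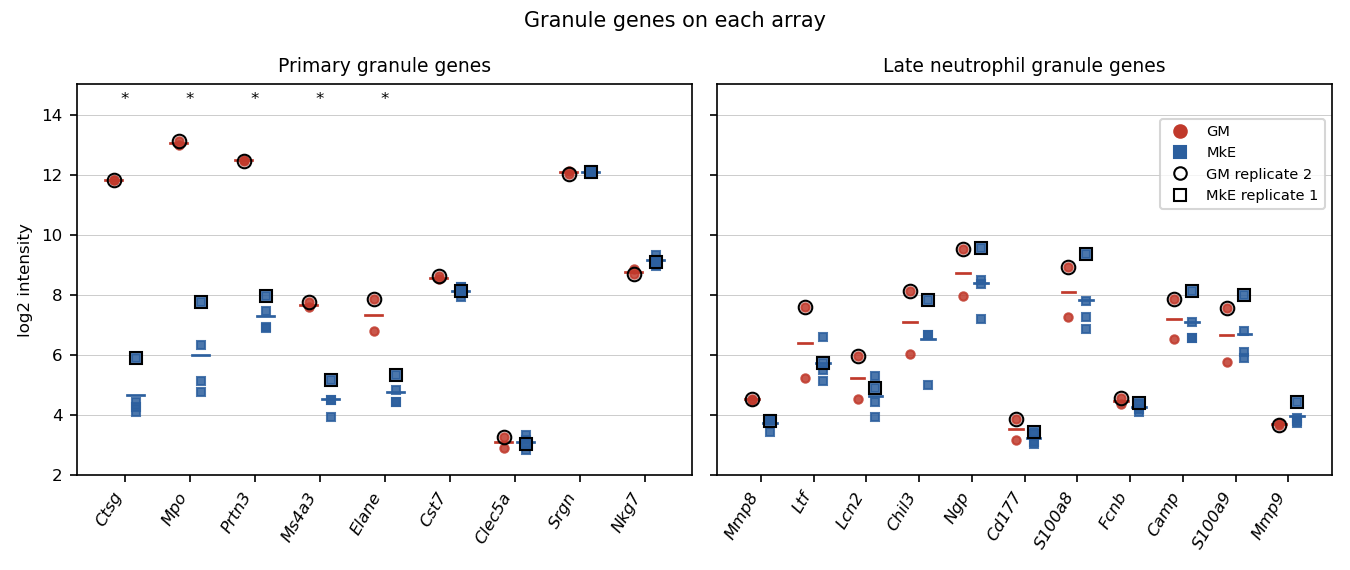
Log2 intensity on each array (points) and group means (bars) for the 9 primary granule genes and the 11 late neutrophil granule genes tested, GM left of MkE, with * over genes called and with GM replicate 2 and MkE replicate 1 outlined. Ctsg, Mpo and Prtn3 separate the groups by more than 4 log2 units, while all late genes other than Mmp8 and Mmp9 overlap.

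Genes of the phagocyte oxidase, the enzyme complex that makes superoxide, were higher in GM where called. Of 6 in the list 5 were tested, 3 were called higher and none lower (median 1.85, and 0.78 with the mean of the probe sets). Ncf1, which encodes the organising subunit p47phox, had 10.33 and 10.49 in GM, against 5.39, 4.53, 4.78 and 4.65 in MkE, a difference of 5.57 ± 0.39. Ncf4, which encodes the subunit p40phox, differed by 3.93 ± 0.37. Both regulators separated the groups fully on the probe sets that stand for them. The 3 probe sets of Ncf1 ranged from 0.63 to 5.57. Cybb, the catalytic subunit, had 5.15 and 6.43 in GM, against 4.33, 3.66, 4.21 and 3.57 in MkE, and its call (1.85 ± 0.54) ended without GM replicate 2 (limma adjusted p = 0.46) and with the mean of its 3 probe sets (a difference of 0.78, limma adjusted p = 0.096). Its partner Cyba (0.19 ± 0.52) was not called.

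Of 16 monocyte and macrophage genes 15 were tested, 9 were called higher in GM and none lower, with a median difference of 2.52 (4.66 with the stricter filter). F13a1, the coagulation factor XIII A chain made by monocytes, had 10.65 and 10.65 in GM, against 3.59, 3.52, 3.93 and 3.88 in MkE, a difference of 6.92 ± 0.52 (limma adjusted p = 3.1e-13). Ctss, the lysosomal protease cathepsin S, had 10.57 and 10.51 in GM, against 4.96, 4.43, 5.55 and 4.46 in MkE, a difference of 5.69 ± 0.31. These genes had GM levels over 6 and 4 log2 units above every MkE array. Ly86, a partner of a Toll-like receptor relative, differed by 5.02 ± 0.47, Ms4a6c by 5.01 ± 0.53, the signalling adaptor Tyrobp by 4.87 ± 0.35 and the pore-forming protein Mpeg1 by 4.45 ± 0.94. A second probe set of Ms4a6c gave 0.37. Lyz2, lysozyme, was called at 2.52 ± 0.77, with 8.43 and 8.38 in GM, against 5.97, 5.73, 5.61 and 6.22 in MkE. Its call ended without GM replicate 1 or 2, at differences of 2.5 and 2.55, and without MkE replicate 3 (limma adjusted p = 0.054). The SD of Lyz2 in PreB, which enters the shared spread, was 2.62. Ccr2, Adgre1 and Cd14, markers of mature monocytes and macrophages, were not called, and Cd14 was under the filter level in both groups. The probe sets of Ccr2 ranged from -0.07 to 1.56. In the chemokine class, Ccl9 had 11.88 and 11.68 in GM, against 5.82, 5.24, 4.71 and 5.85 in MkE, a difference of 6.38 ± 0.43. Its GM mean was the highest of the 17 groups, and its other probe set gave a difference of 1.11.

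Genes known from lymphoid progenitors were among those most different between these myeloid groups. Of 16 lymphoid priming genes 15 were tested, 8 were called higher in GM and 1 lower, with a median difference of 2.91 (1.86 with the mean of the probe sets). Dntt, the terminal transferase that adds bases to antigen receptor joints, had 11.96 and 11.96 in GM, against 5.67, 4.94, 5.21 and 4.92 in MkE, a difference of 6.77 ± 0.44 (109-fold, limma adjusted p = 6.7e-15). Flt3, a cytokine receptor of early lymphoid and myeloid progenitors, had 9.94 and 10.06 in GM, against 5.91, 5.37, 4.90 and 5.64 in MkE, a difference of 4.54 ± 0.35. Both genes were more than 4 log2 units apart with no overlap. Satb1, a chromatin organiser, differed by 4.34 ± 0.37, though its 5 probe sets ranged from 0.08 to 4.38. Notch1, the receptor that starts T cell development, had 10.14 and 10.24 in GM, against 5.65, 6.21, 6.55 and 6.27 in MkE, a difference of 4.02 ± 0.29. Il7r, the IL-7 receptor, had 6.58 and 6.74 in GM, against 3.88, 3.8, 3.35 and 3.98 in MkE, a difference of 2.91 ± 0.66. Other probe sets gave 1.64 for Notch1 and 0.82 for Il7r. Lsp1 (4.67 ± 0.30), Cd52 (4.31 ± 0.39) and the inhibitory receptor Btla (3.26 ± 0.43) were the other higher members.

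The recombinase genes, which act later in lymphocytes, were not called. Rag1 was under the filter level in both groups and Rag2 differed by 1.11 ± 0.38 (limma adjusted p = 0.054), and it was called in several other settings, among them the fit of the GM and MkE arrays alone. Bcl11a, a factor of B cells that also silences fetal globin, was lower in GM (-1.33 ± 0.26), but by -0.86 when the mean of its 7 probe sets stood for it, and those ranged from -1.44 to 0.08. Ikzf1 (-0.21 ± 0.22) and Mef2c (0.11 ± 0.29), factors shared by lymphoid and myeloid cells, were not called. The B cell markers Cd79a, Pax5 and Ebf1 were under the filter level in both groups.

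Genes known from stem cells went both ways. Of 18 in the list 17 were tested, 4 were called higher in GM and 3 lower (median 0.69, and 0.19 with intensities under 16 set to 16). Hlf, a factor of stem cells, had 8.61 and 8.62 in GM, against 5.37, 4.77, 5.35 and 5.00 in MkE, a difference of 3.49 ± 0.23 (limma adjusted p = 6.7e-15). Procr, a receptor for protein C used to mark stem cells, had 6.27 and 6.46 in GM, against 3.13, 3.39, 3.10 and 3.06 in MkE, a difference of 3.19 ± 0.36. Both had full separation, and Procr was under the filter level in MkE. Mecom, a factor that maintains stem cells, differed by 2.51 ± 0.40, but by 0.82 over the mean of its 3 probe sets, of which 1 gave -0.06. Fgd5 was called at 1.34 ± 0.29, with a limma adjusted p of 0.058 without GM replicate 1, and differed by 0.51 with intensities under 16 set to 16 (limma adjusted p = 0.3).

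Slamf1, Tek and Mycn were the lower ones. Slamf1, which encodes CD150, had 3.23 and 3.23 in GM, against 6.67, 6.82, 6.97 and 6.84 in MkE, a difference of -3.59 ± 0.22. Its 3 probe sets ranged from -3.59 to -0.445. Tek, the angiopoietin receptor, had 3.67 and 3.45 in GM, against 5.82, 6.15, 6.66 and 6.95 in MkE, a difference of -2.84 ± 0.42. Both were under the filter level in GM. Mycn differed by -1.55 ± 0.37 (limma adjusted p = 0.054 without GM replicate 1), but by -0.48 over the mean of its 3 probe sets, which ranged from -1.55 to 0.13. In the list of HoxA and partner genes, 7 of 8 were tested and none was called by limma (median -0.13), with 2 at an unadjusted p under 0.05, and 1 was called higher in some other settings, among them array weights and the GM and MkE arrays alone.

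Slamf1 is 1 of the antigens in common use for sorting myeloid progenitors, along with Itga2b (CD41), Cd34, Eng and the Fc receptors. Of 11 such antigen genes 10 were tested, 4 were called higher in GM (Cd34, Fcgr3, Flt3 and Il7r) and 3 lower (Slamf1, Itga2b and Cd9). A difference in a gene used for a sort is set by the sort, and which antigens were used is not given in the sources used here. This limit also covers Flt3 and Il7r, given above among the lymphoid priming genes. Cd34 had 11.30 and 11.08 in GM, against 5.65, 5.11, 5.54 and 4.97 in MkE, a difference of 5.87 ± 0.25. Eng (-0.53 ± 0.26) and Fcgr2b (0.44 ± 0.25) were not called, and the call of Fcgr3 (1.32 ± 0.37) ended without GM replicate 2 (limma adjusted p = 0.28).

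Red cell genes were lower in GM. Of 19 erythroid membrane, globin and enzyme genes 14 were tested, 8 were called lower and none higher, and the median difference was -1.44. Promoters of Rhag, Kel and Klf1 are shown because these genes stood among the lower ones and hold AGATAA or TGATAA, the letters bound by GATA factors. They are given as above, with these letters, or TTATCA where TGATAA lies on the other strand, in capitals.
Rhag: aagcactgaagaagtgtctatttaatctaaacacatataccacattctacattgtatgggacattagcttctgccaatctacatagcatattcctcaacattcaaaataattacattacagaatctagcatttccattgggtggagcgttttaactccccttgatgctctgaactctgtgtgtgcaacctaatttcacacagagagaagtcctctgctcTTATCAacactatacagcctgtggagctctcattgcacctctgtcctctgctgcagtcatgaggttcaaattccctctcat
Kel: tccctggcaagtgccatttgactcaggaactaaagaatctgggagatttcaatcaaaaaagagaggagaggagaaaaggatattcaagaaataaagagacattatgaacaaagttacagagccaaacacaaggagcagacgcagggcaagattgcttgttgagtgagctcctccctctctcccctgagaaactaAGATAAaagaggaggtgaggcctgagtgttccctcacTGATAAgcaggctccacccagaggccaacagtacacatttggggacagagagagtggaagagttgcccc
Klf1: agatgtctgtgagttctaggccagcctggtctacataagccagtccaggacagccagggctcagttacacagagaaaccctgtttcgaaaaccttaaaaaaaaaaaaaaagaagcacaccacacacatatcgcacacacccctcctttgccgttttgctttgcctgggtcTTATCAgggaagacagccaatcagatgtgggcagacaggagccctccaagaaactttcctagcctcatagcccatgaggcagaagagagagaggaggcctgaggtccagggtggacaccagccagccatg
They lie at chr17:40810899-40811198 (Rhag, plus strand), chr6:41704276-41704575 (Kel, minus strand) and chr8:84901732-84902031 (Klf1, plus strand) of GRCm38.p6. The letters begin at -31 in Rhag, at -56 and -19 in Kel and at -80 in Klf1. Searched on both strands, AGATAA or TGATAA stood in 5 of the 6 called red cell genes with a promoter in the table and in 5 of the 8 called megakaryocyte-erythroid factors, with none in Gata1, Gata2, Zfpm1 or Aqp1. They stood in 12.1% of the promoters of genes called higher in GM, 15.8% of those called lower and 11.4% of those of all genes tested. The letters CCNCNCCC, bound by Klf1 and Sp factors, stood in 67.8% of those called higher, 67.2% of those called lower and 66% of all, and TTGCNNAA, bound by Cebp factors, in 11.4%, 8.76% and 8.74%.

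Rhag, the Rh-associated glycoprotein of the red cell membrane, had 3.64 and 3.26 in GM, against 7.82, 7.41, 7.90 and 7.68 in MkE, a difference of -4.25 ± 0.32 (19.0-fold lower, limma adjusted p = 3.8e-13). Kel, the Kell blood group protein, had 3.85 and 3.36 in GM, against 7.17, 7.03, 8.05 and 7.11 in MkE, a difference of -3.74 ± 0.29. Both were under the filter level in GM. Car1, a carbonic anhydrase, had 8.40 and 8.50 in GM, against 12.29, 12.53, 12.70 and 12.67 in MkE, a difference of -4.10 ± 0.53, and so stayed well measured in GM. Aqp1, a water channel, differed by -4.63 ± 0.38, Ermap, a blood group protein, by -3.74 ± 0.55 and Icam4, an adhesion protein, by -2.63 ± 0.26. Ank1, the membrane anchor ankyrin, was called at -1.49 ± 0.25 but differed by -0.52 over the mean of its 4 probe sets. The call of Rhd (-1.40 ± 0.37) ended without GM replicate 1 or 2 (limma adjusted p = 0.051 and 0.14). Slc4a1 and Epb42, membrane proteins of late precursors, were under the filter level in both groups and were not called.

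Haem synthesis and iron genes were mixed. Of 18 in the list 17 were tested, 5 were called lower in GM and 1 higher (median -0.48), and without GM replicate 2, 3 were called lower. Blvrb, a biliverdin reductase abundant in red cells, had 6.02 and 5.58 in GM, against 8.55, 8.60, 8.65 and 8.49 in MkE, a difference of -2.78 ± 0.37. Tfr2, the second transferrin receptor, differed by -1.77 ± 0.29 and Urod, a haem synthesis enzyme, by -1.08 ± 0.25. Alas1, the first enzyme of haem synthesis outside red cells, went the other way, with 9.46 and 9.27 in GM, against 6.76, 6.61, 7.52 and 7.37 in MkE, a difference of 2.30 ± 0.40 (limma adjusted p = 4.6e-05). Its erythroid counterpart Alas2 was under the filter level on all 6 arrays. The calls of Slc11a2, an iron transporter, and Steap3, an iron reductase, ended without GM replicate 2 (limma adjusted p = 0.11 and 0.065), and that of Steap3 also without GM replicate 1 (0.068). Over the mean of its probe sets Steap3 differed by -0.77. Tfrc, the main transferrin receptor (0.34 ± 0.30), and Fech, the last enzyme of the path (-0.35 ± 0.45), were not called.

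Megakaryocyte and platelet genes also went both ways. Of 23 in the list 20 were tested, 6 were called lower in GM and 3 higher (median -0.46, and -0.83 with the stricter filter), and without GM replicate 2, 3 were called lower. Vwf, von Willebrand factor, had 3.79 and 3.19 in GM, against 6.90, 6.79, 7.47 and 6.87 in MkE, a difference of -3.51 ± 0.43 (11.4-fold lower, limma adjusted p = 5.4e-08). Gp5, a subunit of its platelet receptor, had 4.35 and 4.00 in GM, against 6.30, 6.2, 7.72 and 7.12 in MkE, a difference of -2.66 ± 0.36. Both were near or under the filter level in GM. Itga2b, the platelet integrin chain that is also CD41, had 6.93 and 6.63 in GM, against 8.12, 8.47, 8.59 and 8.60 in MkE, a difference of -1.67 ± 0.28. The thrombin receptor F2r was called at -3.04 ± 0.84, with 9.04 and 9.19 in GM, against 12.33, 12.14, 12.07 and 12.08 in MkE. Its call ended without GM replicate 1 or 2, at differences of -2.97 and -3.12. The fit shares the spread of all groups, and the SD of F2r was 3.13 in PreB.

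Selp, Plek and Itgb3 were the higher ones. Selp, which encodes P-selectin of platelets and endothelium, had 7.44 and 7.57 in GM, against 3.5, 3.64, 3.82 and 3.51 in MkE, a difference of 3.88 ± 0.30 (14.8-fold, limma adjusted p = 6.8e-13). Plek, pleckstrin of platelets and leukocytes, differed by 1.98 ± 0.39. Itgb3, the partner chain of Itga2b, differed by 2.23 ± 0.36 on the probe set that stands for it and by -0.33 on another, and by 0.95 over their mean. The 2 chains of the platelet integrin thus differed in opposite directions on their main probe sets. Pf4 (-0.94 ± 0.83) and the dim Ppbp, chemokines of platelet granules, were not called.

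The largest differences outside these lists included genes with less familiar roles in blood. Among the 15 largest in favour of GM, Bex6, a member of the Bex gene family that lies on chromosome 16, had 10.59 and 10.70 in GM, against 3.69, 3.16, 3.15 and 3.07 in MkE, a difference of 7.38 ± 0.31 (167-fold, limma adjusted p = 3e-20). Cd53, a tetraspanin of white blood cells, had 9.98 and 9.91 in GM, against 4.62, 4.24, 3.23 and 3.32 in MkE, a difference of 6.09 ± 0.31. Bex6 lay under the filter level on every MkE array and Cd53 on 2 of the 4. Choline dehydrogenase, encoded by Chdh (6.66 ± 0.47), the membrane glycoprotein Emb (6.09 ± 0.59), the actin-binding calponin Cnn3 (5.76 ± 0.34) and Atp8b4 (5.53 ± 0.51), a member of the phospholipid flippase family, were also among them. Probe sets ranged from 0.47 to 7.20 for Emb, 1.08 to 5.90 for Cnn3, 1.34 to 5.53 for Atp8b4 and 2.07 to 6.09 for Cd53.

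Among the 15 largest in favour of MkE, Mfsd2b, which exports sphingosine-1-phosphate from red cells and platelets, had 4.10 and 4.45 in GM, against 10.26, 10.14, 10.78 and 10.41 in MkE, a difference of -6.13 ± 0.31 (69.8-fold lower, limma adjusted p = 4.1e-18). Aldh1a1, a retinaldehyde dehydrogenase, had 4.56 and 4.41 in GM, against 9.58, 9.62, 9.996 and 9.84 in MkE, a difference of -5.28 ± 0.58. Both separated the groups by more than 5 log2 units. The carboxylesterase Ces2g (-5.27 ± 0.33), the sialyltransferase St8sia6 (-5.25 ± 0.35), the lectin Zg16 (-5.07 ± 0.23), the TGF-beta co-receptor Tgfbr3 (-4.74 ± 0.39), the pseudokinase Trib2 (-4.64 ± 0.33), the meiotic protein Rec114 (-4.62 ± 0.33), the poly(A) polymerase Tent5c (-4.60 ± 0.53), Samd14 (-4.59 ± 0.32) and Nckap1 (-4.15 ± 0.36), a subunit of the WAVE actin complex, followed. Other probe sets gave differences of -0.38 for Rec114, -0.24 for Tgfbr3 and -0.15 for Trib2.

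Calls among genes of cell division are to be read beside those over all genes tested, 5.71% higher in GM and 2.34% lower. All 18 DNA replication genes were tested and none was called by limma, although 10 had an unadjusted p under 0.05, all 18 differences were positive (0.16 to 1.11, median 0.68) and 3 (Mcm3, Mcm5 and Pola1, of the replicative helicase and polymerase) had an adjusted p under 0.05 at less than 2-fold. Up to 5 were called in other settings, the most with the replicate number as a block in the GM and MkE arrays alone. Of 17 mitosis genes 16 were tested and 1 was called higher (median 0.43, and 3 called with the block in those arrays). It was Bub1, a spindle checkpoint kinase (1.14 ± 0.33), and its call ended without GM replicate 1 or 2 (limma adjusted p = 0.21 and 0.068) and with the mean of its probe sets (a difference of 0.88). Of 12 cell cycle inhibitors, Btg1 was called lower (-1.22 ± 0.35), and that call also ended without either GM array (limma adjusted p = 0.11 and 0.13) and with the mean of its probe sets (adjusted p = 0.058).

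**Figure D4:**
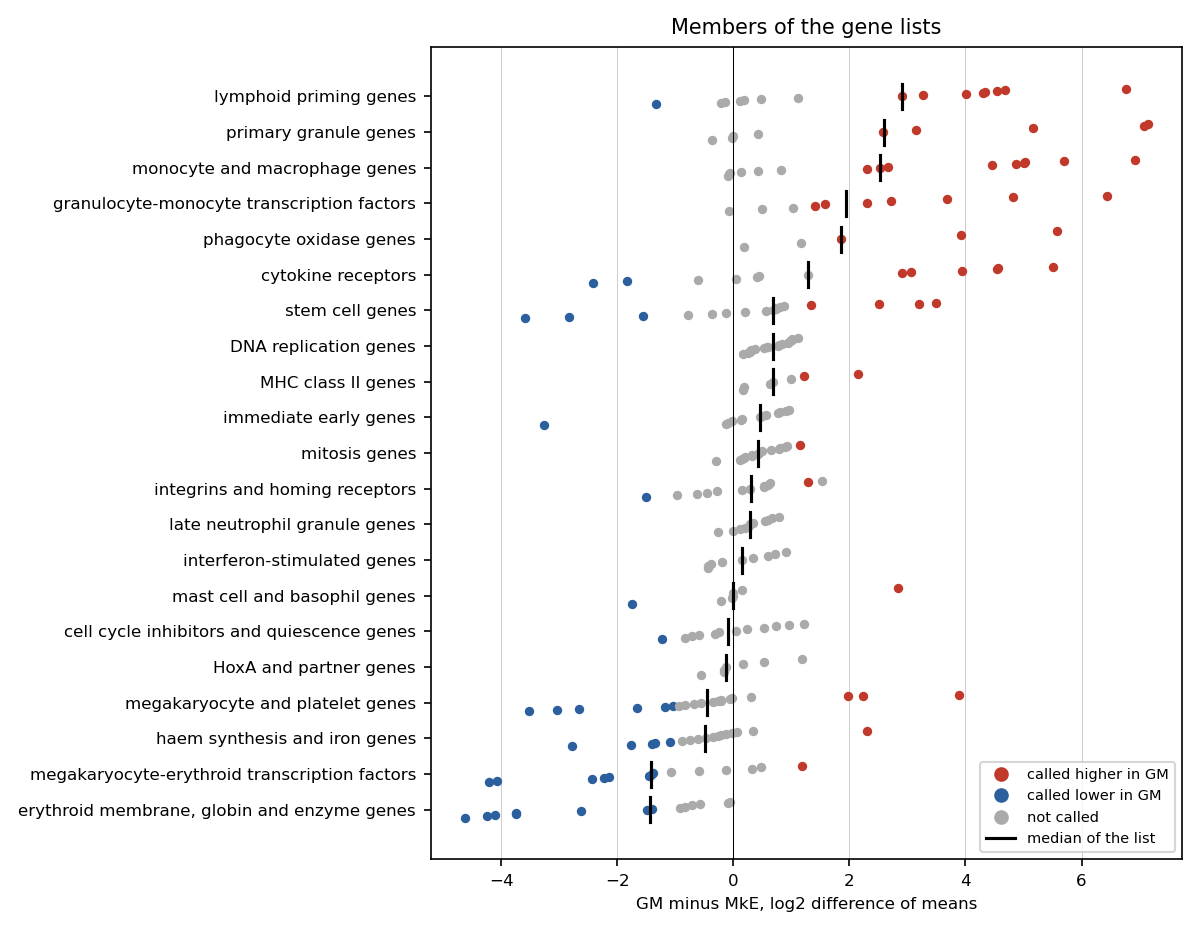
Difference GM minus MkE on the log2 scale (x axis) for each tested member of 21 gene lists (y axis), with called genes in colour and a bar at the median of each list. Medians run from 2.91 for lymphoid priming genes to -1.44 for erythroid genes, and several lists, such as stem cell and platelet genes, hold calls on both sides.

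Levels in the other groups place these differences in the series, as a description with no test. Of the 796 genes called higher in GM, the LMPP mean lay nearer to GM than to MkE for 630, and of the 327 called lower it did so for 323, against 50.9% of all genes tested. For LTHSC the numbers were 439 of 796 and 199 of 327, against 47.9% of all. The genes higher in GM had their highest mean in GMP most often (144), then in NKmature (98) and ProB (90), and in GM itself for 62. Those lower in GM had it in MkE most often (98), then in ProE (65), CFUE (33) and LTHSC (27).

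Single genes show how these patterns differ. Dntt had means of 8.16 in LTHSC, 12.51 in LMPP, 11.96 in GM and 4.85 in GMP, against 5.19 in MkE, so the level in GM was close to that in LMPP and the level in GMP to that in MkE. Flt3 (10.55 in LMPP, 6.31 in GMP and 5.46 in MkE, with the GM arrays at 9.94 and 10.06) and Hlf (9.41 in LMPP, 8.61 in GM, 5.57 in GMP and 5.12 in MkE) likewise had lower means in GMP and MkE than in LMPP and GM. Granule genes ran the other way between GM and GMP. Ms4a3 had 7.67 in GM and 11.27 in GMP, against 4.53 in MkE, and Ctsg had 11.82 in GM and 12.70 in GMP, against 4.68 in MkE. Prtn3 had 11.39 in LTHSC, 10.51 in LMPP, 12.47 in GM and 13.37 in GMP, against 7.31 in MkE, so MkE was lower than the stem cell group.

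On the megakaryocyte-erythroid side, Gata1 had 7.99 in LTHSC, 5.51 in LMPP, 6.97 in GM and 6.01 in GMP, against 11.18 in MkE, 11.28 in PreCFUE and 10.24 in MkP. Klf1 had 7.91 in LTHSC, 4.94 in LMPP, 7.23 in GM and 5.52 in GMP, against 11.31 in MkE, 11.76 in PreCFUE and 8.32 in MkP. For both, the GM mean lay above those of LMPP and GMP, although Gata1 also had a mean of 6.51 in CD4. The 2 LTHSC arrays varied widely, with an SD of 1.21 for Gata1, 2.09 for Klf1 and 2.15 for Car1, so GM was not placed against LTHSC. Car1 had 10.43 in LTHSC, 4.01 in LMPP, 8.45 in GM and 6.39 in GMP, against 12.55 in MkE. Vwf was high in LTHSC (10.01) and MkP (11.19), at 3.49 in GM and 7.0 in MkE. Selp had 7.50 in GM, 4.02 in LMPP, 4.14 in GMP and 3.62 in MkE, and was as high as in GM only in MkP (7.90). St8sia6 had 5.39 in GM, against 10.64 in MkE, the highest of the 17 groups, and 8.09 in PreCFUE and 3.67 in CFUE.

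**Figure D5:**
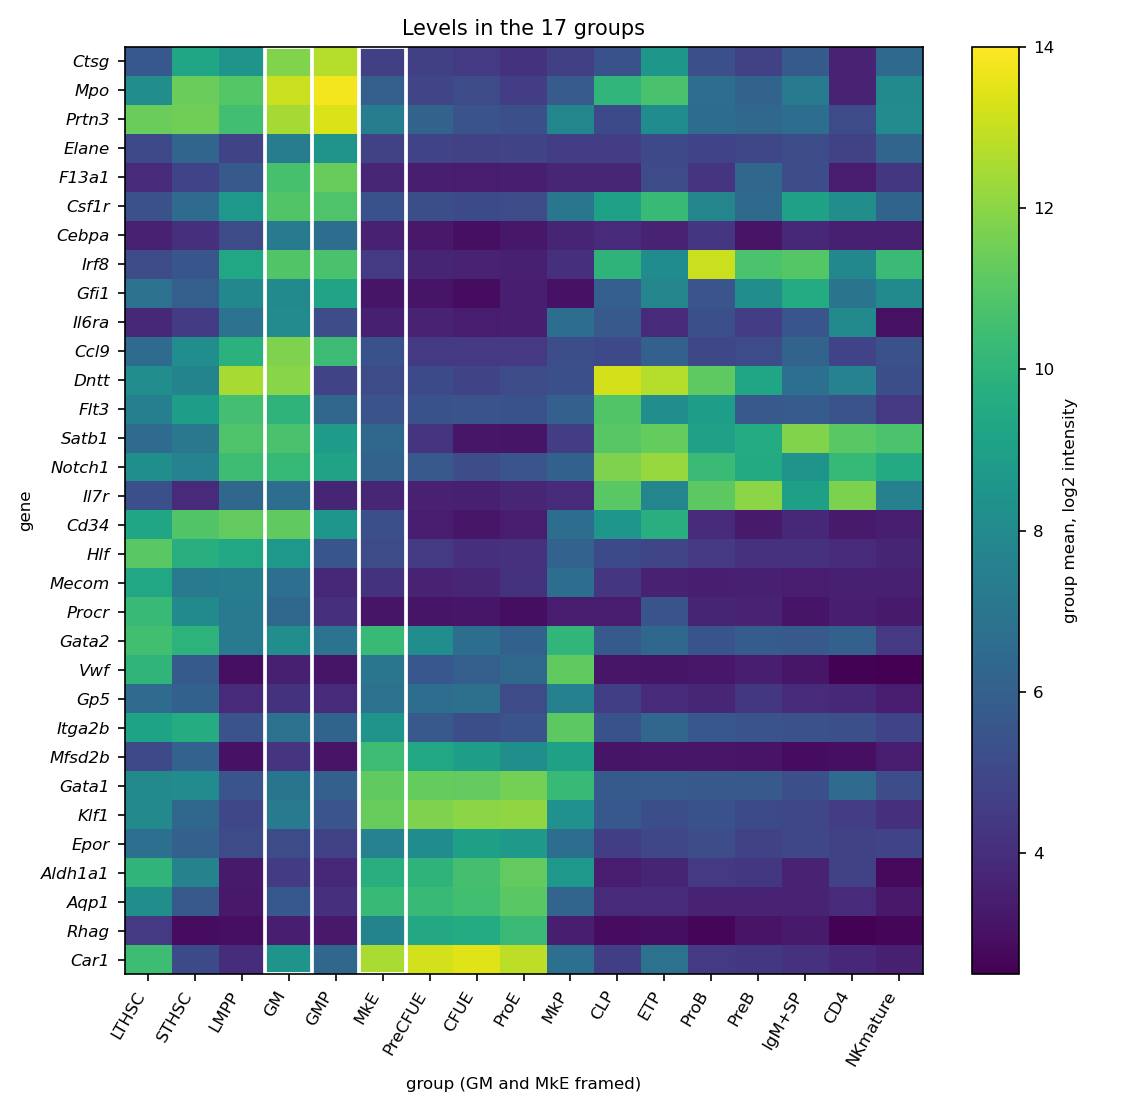
Mean log2 intensity (colour scale) of 32 genes (rows) in the 17 groups (columns), with GM left of MkE and both framed. Dntt, Flt3 and Hlf are similar in LMPP and GM and low in GMP and MkE, granule genes are highest in GM and GMP, and Gata1, Klf1 and Car1 are highest in MkE and the erythroid groups.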

How the data were processed

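RNA of 2000 sorted bone marrow cells per sample was amplified and hybridised to Affymetrix arrays, per the series design text. The authors deposited probe set intensity values computed with RMA, per the series design text. They are on a linear scale, as the values themselves show, and neither software nor scaling between arrays is stated in the sources used. Precision here is limited by how many arrays there are.

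The log2 of each intensity was taken. GEO's platform annotation gave 1 symbol to 34958 of 45101 probe sets, several to 932 and none to the other 9211 that it does not list. The brightest probe set stood for each of 18194 genes, and 13949 genes with at least 1 group mean above 3.89, the median of all values, were tested. A model with the means of all 17 groups was fitted to all 47 arrays with limma 3.58.1 (lmFit and eBayes, R 4.3.3), with 30 residual degrees of freedom and Benjamini-Hochberg adjustment over all genes tested. Promoters came from a RefSeq table on GRCm38.p6, which held 11211 of the genes tested. On simulated data, 86% of genes changed by 1.5 and 99% of those changed by 3 on the log2 scale were called, and so were 5 unchanged genes. The simulated noise was normal, with the same SD in all groups for a gene. In the real arrays the SD of genes such as F2r differed between groups, so these shares need not hold for them.

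The genes named were the 15 largest and the 15 smallest differences with no overlap, all members of the transcription factor and receptor lists, up to 6 called members of each other list with any called by another list, and cell type markers as levels. Other members named, most of them not called, were chosen after their values were seen. The groups and lists were chosen with earlier results of these data known. Between arrays of the same replicate number, deviations from the group means correlated at -0.11 for number 1 and -0.017 for number 2. With 2 GM arrays, the deviations of one mirror those of the other, so this check could not decide whether the numbers pair the arrays. Alternatives covered the probe set, filter, scaling, floor, weights, spread, samples, replicate block and leaving out each array.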

Additional observations from a re-analysis of the deposited data

Results flagged for a closer look

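Among 152 genes named here, 13 had 1 MkE array far from the other 3, where chance flags about 1 in 20 groups. MkE replicate 3 was such an array for Bcl11a (11.02), Csf3r (4.03), Icam4 (8.45), Kel (8.05), Mycn (10.36) and Vwf (7.47), each time as the highest, and for Mmp8 (3.43) as the lowest. MkE replicate 1 was the highest for Bex6 (3.69), Chdh (3.54), H2-Aa (5.9) and Tal1 (9.63), and MkE replicate 2 for Cebpb (4.47) and Emb (5.02). The upper quartile of all intensities was 75.72 on MkE replicate 3, against 59.87 to 62.86 on the other MkE arrays. The GM group has 2 arrays and could not be examined in this way.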

How the results depend on the processing

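The number of genes called higher in GM was 796 and lay between 579 (mean of all probe sets) and 883 (array weights) in the other settings that kept all 47 arrays. With a single array left out it lay between 602 and 830. The number called lower was 327, between 258 and 375 with all 47 arrays, and between 248 and 348 with a single array left out. With the replicate number as a block over all arrays, 778 genes were called higher and 334 lower. With the block and the GM and MkE arrays alone, which leaves 1 residual degree of freedom, 1036 were called higher and 315 lower. Whether the numbers pair the samples could not be decided, so the block is only an alternative. No named gene turned its direction in a called value. Of the 152 genes named, 14 lost their call without GM replicate 1, 15 without GM replicate 2 and 13 with the mean of the probe sets, and up to 4 in each other setting. With only 2 GM arrays, the spread of that group is taken from all 17 groups, and a lone GM array is assumed to vary like them. F2r, which lost its call without either GM array, had an SD of 0.11 in GM, 0.12 in MkE and 3.13 in PreB. Signals near the filter level bound the size of differences of dim genes.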

Other observations

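Some further lists are given here as values, beside 8.05% of all genes tested that were called in either direction. Among 9 mast cell and basophil genes 7 were tested, and Mcpt8, a basophil protease, was higher in GM (2.84 ± 0.38), while Slc18a2, a transporter that loads amines into granules, was lower (-1.75). Their list median was -0.00. Among 8 MHC class II genes 7 were tested and all 7 differences were positive (median 0.68). H2-Aa (2.15) and H2-DMa (1.22), which present and load antigen, were called, but neither was without GM replicate 1 or without GM replicate 2. The differences then were 2.15 and 2.15 for H2-Aa and 1.17 and 1.27 for H2-DMa. H2-Aa had 7.98 and 7.98 in GM, against 5.79 to 5.90 in MkE. Its SD in ETP, which enters the shared spread, was 2.18. H2-DMa was not called without MkE replicate 1, 2 or 4 either, nor with the replicate block over all arrays (a difference of 0.85). The 4 probe sets of H2-Aa ranged from 0.16 to 2.15, and their mean gave 0.98 (limma adjusted p = 0.15).

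Of 14 integrins and homing receptors 13 were tested. Selplg, the ligand of P-selectin, was higher in GM (1.28), as was its partner Selp, and Itgb2, the common beta chain of leukocyte integrins, was lower (-1.5). None of 9 interferon-stimulated genes tested was called by limma (median 0.15), with 2 at an unadjusted p under 0.05, and 1 was called higher with array weights. Of 13 immediate early genes 1 was called, Egr1 (-3.26 ± 1.01). Its levels were 4.63 and 5.22 in GM, against 8.03, 7.86, 8.74 and 8.08 in MkE. Its call ended without GM replicate 1 or 2, at differences of -2.96 and -3.55. It also ended without MkE replicate 3 (limma adjusted p = 0.064) and with a trended robust spread (0.052). The SD of Egr1 in LMPP, which enters the shared spread, was 2.78.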
